A study of Mus musculus with 12 samples.

Results

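The macroautophagy machinery was followed in bone marrow monocytes of the mouse as a set of 38 genes, chosen by symbol: the core genes that start, extend and close an autophagosome, the LC3 family and 4 cargo receptors. All 38 were found once among the 54532 genes listed, and all 38 were among the 14324 genes that passed the filter on low counts and were tested. The cells were sorted from bone marrow as CD11b-positive with high Ly6C, the surface pattern of classical inflammatory monocytes. The 12 RNA-seq libraries fall into 4 groups of 3: cells cultured with LPS from succinate mice, cells cultured with LPS from control mice, unstimulated cells from succinate mice and unstimulated cells from control mice. Succinate mice had received 300 mM succinate over 7 days before the cells were taken, and control mice had not. LPS, a bacterial cell wall component that Toll-like receptor 4 senses, was given in culture for 4 h, so its effect here is one on cultured cells. The sample titles call the other cells unstimulated and give no culture time for them, and the part of culture in the LPS comparisons was not tested. The sources used here do not give strain, age, sex, the route of succinate or any pooling of animals. They also leave unsaid whether replicates were separate mice, so each p-value reflects just the variation among these libraries, which may be technical.

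Autophagy encloses cytoplasm, organelles or microbes in a double membrane that fuses with lysosomes. The ULK kinase complex starts it, a class III phosphatidylinositol 3-kinase marks the forming membrane with PI3P, ATG2 proteins and scramblases supply lipid, and ubiquitin-like conjugation attaches LC3 and GABARAP proteins, which cargo receptors bind. In macrophages the pathway clears bacteria and damaged mitochondria and limits inflammasome output, and much of its activity is set on the proteins, which mRNA counts do not show.

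Total counts lay between 15975882 and 18306747 per library (median 16980357). All 8 monocyte markers were above 1 CPM (counts scaled by TMM and to a fixed library total). Their summed level was 3329 to 5000.1 and 4728 to 5575 CPM in succinate and control mice with LPS. Without LPS it was 2502 to 3164 CPM in succinate mice and 3089 to 3532 CPM in control mice. Most of it was Cd14 and Ly6c2, both higher with LPS as group means (2191 and 3004, against 1341 and 1546 CPM for Cd14, in succinate and control mice). Ms4a4c and Fcgr1 were higher too, and Itgam lay close together. Ccr2 (33.1 and 36.8, against 83.9 and 87.0 CPM), F13a1 (88.7 and 122, against 326 and 416 CPM) and Csf1r (306 and 420.2, against 444 and 550.1 CPM) were lower with LPS in both kinds of mice. The summed level of 7 neutrophil markers was 7205 to 7578 and 6959 to 9739 CPM in succinate and control mice with LPS, and 3994 to 5199.7 and 4342 to 7083 CPM in succinate and control mice without it, so the ranges were apart in succinate mice and overlapped in control mice. Most of that sum was Ngp and Camp, both higher with LPS as group means (4694 and 5140.4, against 2716 and 3248 CPM for Ngp, in succinate and control mice). Mmp8 (44.6 and 54.3, against 111 and 147 CPM) and Cxcr2 (12.7 and 10.3, against 26 and 26.1 CPM) were lower with LPS in both kinds of mice, and Ltf (872 and 958, against 872 and 902 CPM) lay close together. The summed level of 4 dendritic cell markers was 18.7 to 19 and 19.9 to 28.7 CPM in succinate and control mice with LPS, and 6.71 to 13 and 7.30 to 8.62 CPM in succinate and control mice without it. Other lists stood apart by LPS in succinate mice and overlapped in control mice. These were 5 B cell markers (122 to 144 CPM with LPS and 163 to 226 CPM without in succinate mice, 71.3 to 127 and 124 to 149.7 CPM in control mice), 5 T and NK cell markers (31.8 to 42.7 and 18.9 to 23.6 CPM in succinate mice, 18.8 to 31.2 and 22.5 to 24.2 CPM in control mice) and 4 markers of eosinophils, basophils and mast cells (16.1 to 34.9 and 10.8 to 14.3 CPM in succinate mice, 8.05 to 21.7 and 8.45 to 10.4 CPM in control mice). The summed level of 4 early myeloid markers was 3541 to 4267 and 1938 to 4491 CPM in succinate and control mice with LPS. Without LPS it was 2343 to 3899 and 2501 to 3467 CPM. Mpo alone had 1101 to 1368 CPM as group means. Erythroid and megakaryocyte sums reached at most 28.4 and 3.85 CPM. The sums of these 3 lists overlapped between cells with and without LPS in both kinds of mice. No marker in these lists was at 0 in all libraries, and their part in the LPS results was not tested. The 5 genes S100a4, Rpl24, Rpl10-ps3, Gm14303 and Rpl35a-ps2 split the libraries into 5 with a mean log2 CPM of 3.19 to 4.03, 1 of them with LPS, and 7 with 0.82 to 1.46. With a term for that split, 19 members were called in each LPS comparison, against 21 in succinate mice and 18 in control mice without it. In each, 18 of the 19 were also called without the term. Over all genes, 3653 were called with it in succinate mice and 4315 in control mice, against 4331 and 4306. In bulk RNA, fewer cells of a type and less RNA per cell cannot be told apart.

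With LPS, more members of the autophagy set were lower than higher, in both kinds of mice. A gene was called where edgeR's quasi-likelihood test gave a Benjamini-Hochberg adjusted p below 0.05 over all 14324 genes tested, and fold changes are log2 of LPS over no LPS, with the SE of the fit. In succinate mice 6 members were called up and 15 down, while 17 were not called. Over all genes tested in that comparison 14.1% were called up and 16.2% down. The same comparison in control mice called 5 members up, 13 down and 20 in neither direction, against 15.3% up and 14.8% down over all genes. The median member changed by -0.23 in succinate mice and -0.20 in control mice, where the median tested gene changed by -0.02 and -0.00.

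The 5 members called up in both kinds of mice were Vmp1, Atg16l2, Atg4a, Atg4d and Optn. The 13 called down in both were Ulk1, Atg13, Pik3c3, Atg14, Uvrag, Atg2a, Atg2b, Atg7, Atg12, Atg4c, Map1lc3b, Nbr1 and Calcoco1. Of all 14324 genes tested, 3316 were called in both kinds of mice in the same direction, up and down together. For 5 members, the 5 that were called up, all 6 libraries with LPS were above all 6 without, as held for 12.5% of all tested genes. For 13 members all 6 libraries with LPS were below all 6 without, as held for 12.4% of all tested genes. Those 13 were the genes called down in both, with Wipi2 in place of Ulk1. The log2 fold changes had the same sign in both kinds of mice for 35 of 38 members, with a Pearson correlation of 0.94 and a Spearman correlation of 0.94 across the 38 genes. The 2 comparisons have no library in common, but genes are not independent replicates and both come from 1 fit, so these are descriptions. The share of all genes with the same sign is not given here.

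**Figure D1:**
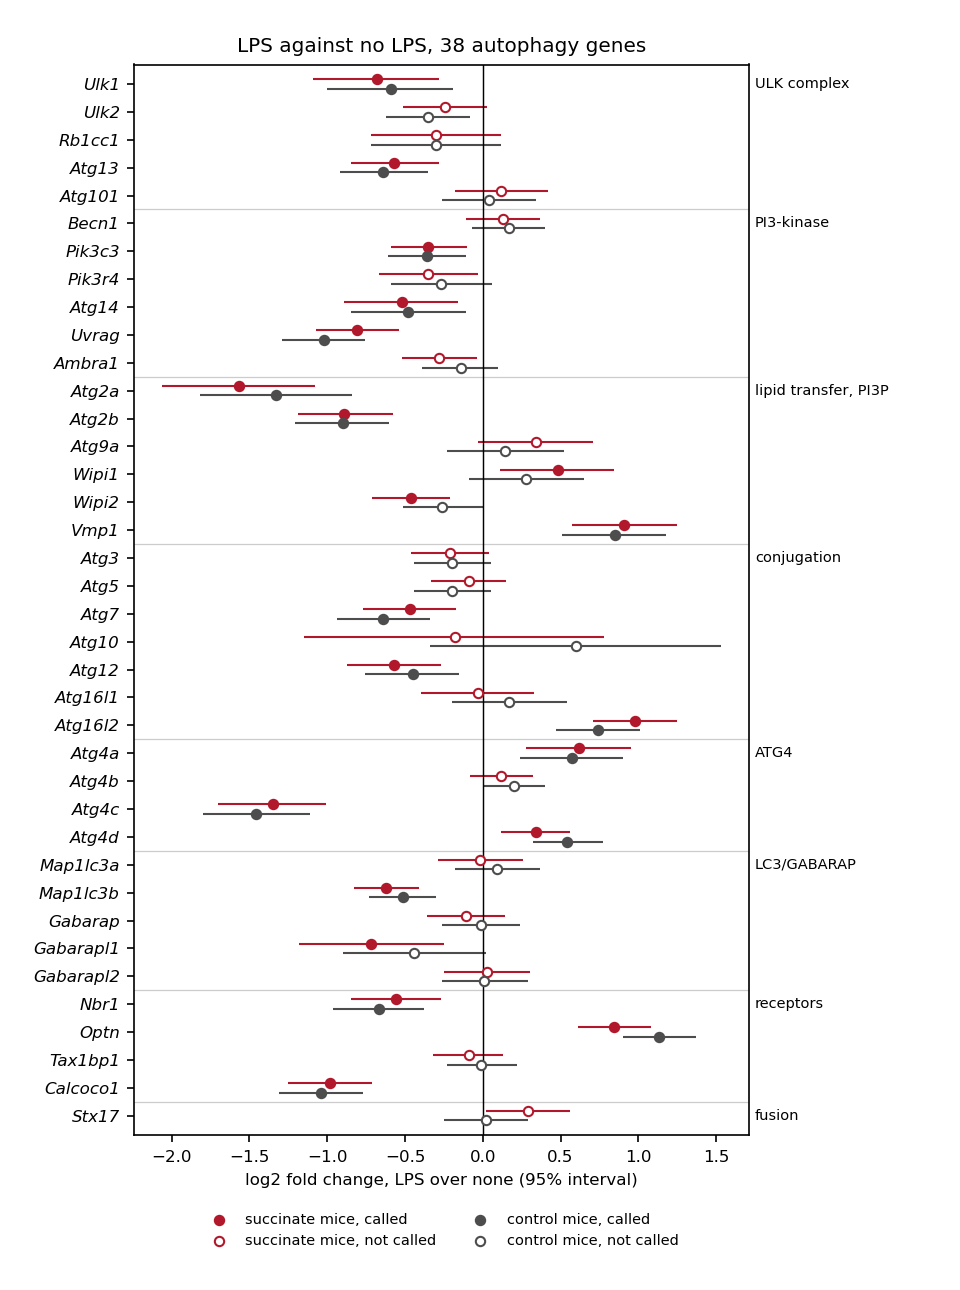
Log2 fold change with LPS of the 38 autophagy genes, ordered by role, in succinate mice (red) and control mice (grey). Points are estimates, lines 95% intervals of the fit, and filled points are genes with an adjusted p below 0.05. Atg2a (-1.57 and -1.33) and Atg4c (-1.35 and -1.46) lie farthest to the left, and Optn (0.84 and 1.13), Vmp1 (0.91 and 0.85) and Atg16l2 (0.98 and 0.74) farthest to the right among genes called in both.

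The sequence before the start site is given for the members with the largest rise in succinate mice (Atg16l2), the largest rise in control mice (Optn) and the largest fall in succinate mice (Atg2a), with Atg3, the only member whose window held the longer E-box. The windows are the 250 bases before the start in the RefSeq promoter table of GRCm38.p6, which held 32 of the 38 members, and are printed 5′ to 3′ on the strand of the gene. Atg16l2 has chr7:101302089-101302338 on the minus strand, and the kappaB consensus is in capitals. Optn has chr2:5064118-5064367 on the minus strand and Atg2a chr19:6241418-6241667 on the plus strand, both with no match. Atg3 has chr16:45158579-45158828 on the plus strand, and its E-boxes are in capitals. The windows of Atg16l2 and Atg3 reach into the gene as GENCODE M21 annotates it.
Atg16l2: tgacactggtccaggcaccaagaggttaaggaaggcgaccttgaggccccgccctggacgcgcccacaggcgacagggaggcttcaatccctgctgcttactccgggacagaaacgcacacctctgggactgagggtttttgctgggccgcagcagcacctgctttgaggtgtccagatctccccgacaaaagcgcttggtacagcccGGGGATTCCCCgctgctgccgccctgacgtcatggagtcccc
Optn: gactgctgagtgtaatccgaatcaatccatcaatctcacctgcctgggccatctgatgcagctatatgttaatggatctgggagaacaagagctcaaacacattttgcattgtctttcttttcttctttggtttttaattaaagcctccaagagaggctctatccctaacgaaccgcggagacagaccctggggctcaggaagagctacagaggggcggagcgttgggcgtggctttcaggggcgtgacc
Atg2a: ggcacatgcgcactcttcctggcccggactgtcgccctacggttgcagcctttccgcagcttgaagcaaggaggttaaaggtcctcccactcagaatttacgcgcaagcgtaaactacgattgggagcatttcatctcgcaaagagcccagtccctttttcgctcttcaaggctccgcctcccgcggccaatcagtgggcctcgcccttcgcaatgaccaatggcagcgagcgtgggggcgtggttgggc
Atg3: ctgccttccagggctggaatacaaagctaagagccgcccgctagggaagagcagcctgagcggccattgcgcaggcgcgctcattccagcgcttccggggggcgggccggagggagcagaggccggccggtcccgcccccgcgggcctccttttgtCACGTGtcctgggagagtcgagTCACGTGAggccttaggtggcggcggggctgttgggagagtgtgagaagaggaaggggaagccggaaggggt
Both strands were searched for 6 motifs, and a match is only a run of letters, not a bound site. The kappaB consensus, the motif of NF-kB, was in 1 of 32 members (Atg16l2) and in 4.46% of the 27025 genes with a window. The E-box CACGTG, the core that TFEB and related factors bind, was in 3 of 32 members (Atg3, Atg5 and Atg7) against 6.86% of genes. The longer TCACGTGA, which contains it, was in 1 member (Atg3) against 0.907%. The window of Atg7 (chr6:114670846-114671095, plus strand) lies wholly inside the gene as GENCODE M21 annotates it (chr6:114643097-114860614). The ETS core CCGGAAGT was in 2 members (Atg101 and Vmp1) against 3.23%. The FOXO motif GTAAACA and the interferon-stimulated response element were in 0 of 32 members, against 3.54% and 3.46% of genes.

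In the ULK complex 2 of 5 genes were called down in each kind of mouse and 0 up. They were the kinase Ulk1 and Atg13, the subunit that links the kinase to its scaffold. Ulk1 averaged 107 ± 32.3 CPM in succinate mice with LPS, against 171 ± 35.2 CPM in succinate mice without (SD, n = 3 each). In control mice it averaged 94.6 ± 6.73 CPM with LPS and 143 ± 8.68 CPM without. The log2 fold changes were -0.68 ± 0.19 (adjusted p = 0.0131) and -0.59 ± 0.19 (adjusted p = 0.0285). The groups did not overlap within either kind of mouse, although succinate replicate 1 with LPS (136 CPM) was just above control replicate 1 without LPS (135 CPM). Atg13 changed by -0.57 ± 0.13 and -0.64 ± 0.13 (adjusted p = 0.00429 and 0.00188), and each of its 6 libraries with LPS was below each of the 6 without. The other kinase Ulk2 had -0.24 ± 0.13 in succinate mice and -0.35 ± 0.13 in control mice, where its adjusted p was 0.0507. The scaffold Rb1cc1 (FIP200) had -0.30 ± 0.20 in both, and Atg101, the partner that steadies ATG13, had 0.12 ± 0.14 and 0.04 ± 0.14, all 3 not called.

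Of the 6 genes of the class III PI3-kinase complexes, 3 were called down in each kind of mouse and 0 up. Uvrag, the subunit of the complex that acts in endosome and autophagosome maturation, fell most. Its gene span is chr7:98885021-99141141, which like the spans below is that of the gene, exons and introns, in GENCODE M21 on GRCm38 (mm10). With LPS it had 74.3, 73.2 and 60.8 CPM in succinate mice and 49.3, 64.1 and 63.0 CPM in control mice. Without LPS the values were 117, 132 and 115 CPM in succinate mice and 112, 122 and 124 CPM in control mice. All 6 libraries with LPS were below the other 6, and the log2 fold changes were -0.81 ± 0.12 (adjusted p = 0.000133) and -1.02 ± 0.12 (adjusted p = 1.39e-05). The catalytic subunit Pik3c3 (VPS34) changed by -0.35 ± 0.11 and -0.36 ± 0.12 (adjusted p = 0.0325 and 0.0278). Atg14, the subunit that directs the kinase to the forming autophagosome, changed by -0.52 ± 0.17 and -0.48 ± 0.17 (adjusted p = 0.0306 and 0.0492). Both calls were close to the threshold: the call of Pik3c3 in succinate mice and that of Atg14 in control mice each held in 9 of 21 alternatives. The scaffold Becn1 (0.13 ± 0.11 and 0.17 ± 0.11), the regulatory subunit Pik3r4 (-0.35 ± 0.15 and -0.27 ± 0.15) and the Beclin regulator Ambra1 (-0.28 ± 0.11 and -0.14 ± 0.11) were not called.

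The genes of lipid supply and PI3P binding moved in both directions, with 2 called up and 3 down of 6 in succinate mice and 1 up and 2 down in control mice. Atg2a, one of the paired lipid-transfer proteins that feed the growing membrane, is at chr19:6241668-6262335. It had 119, 118 and 70.5 CPM in succinate mice with LPS and 74.8, 94.7 and 96.8 CPM in control mice with LPS. Unstimulated cells had 347, 371 and 194 CPM in succinate mice and 211, 235 and 225 CPM in control mice. The groups with and without LPS did not overlap, and replicate 3 was the lowest library of both succinate groups. The changes were -1.57 ± 0.23 (adjusted p = 8.76e-05) in succinate mice and -1.33 ± 0.23 (adjusted p = 0.000363) in control mice, which is 2.97-fold and 2.52-fold lower with LPS. Its paralogue Atg2b (chr12:105616136-105685211) had 57.0, 48.1 and 37.0 CPM in succinate mice with LPS and 40.6, 42.4 and 44.7 CPM in control mice with LPS. Without LPS the Atg2b values were 88.3, 92.4 and 82.2 CPM in succinate mice and 74.9, 91.0 and 72.8 CPM in control mice. Again no library with LPS reached one without, at -0.89 ± 0.14 (adjusted p = 0.000221) and -0.90 ± 0.14 (adjusted p = 0.000189).

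Vmp1, a scramblase of the endoplasmic reticulum needed for autophagosome formation, went the other way (chr11:86583865-86683836). With LPS it had 103, 119 and 154 CPM in succinate mice and 149.8, 121 and 122 CPM in control mice. Without LPS it had 79.7, 55.8 and 65.0 CPM in succinate mice and 68.6, 71.8 and 78.1 CPM in control mice. Every library with LPS was above every one without, and the changes were 0.91 ± 0.16 (adjusted p = 0.00046) and 0.85 ± 0.16 (adjusted p = 0.000783). The PI3P-binding proteins Wipi1 and Wipi2, which link PI3P to lipid transfer and conjugation, were called in opposite directions in succinate mice, at 0.48 ± 0.17 (adjusted p = 0.0477) and -0.46 ± 0.12 (adjusted p = 0.00829). In control mice they had 0.28 ± 0.17 and -0.26 ± 0.12 and were not called. The interaction, the LPS effect in succinate mice minus that in control mice, was 0.20 for Wipi1 (95% interval -0.32 to 0.71) and -0.20 for Wipi2 (-0.56 to 0.15), with an adjusted p of 1 for both. The call of Wipi1 held in 13 of 21 alternatives. Atg9a, the scramblase of the seed vesicles, had 0.34 ± 0.18 and 0.14 ± 0.18 and was not called.

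**Figure D2:**
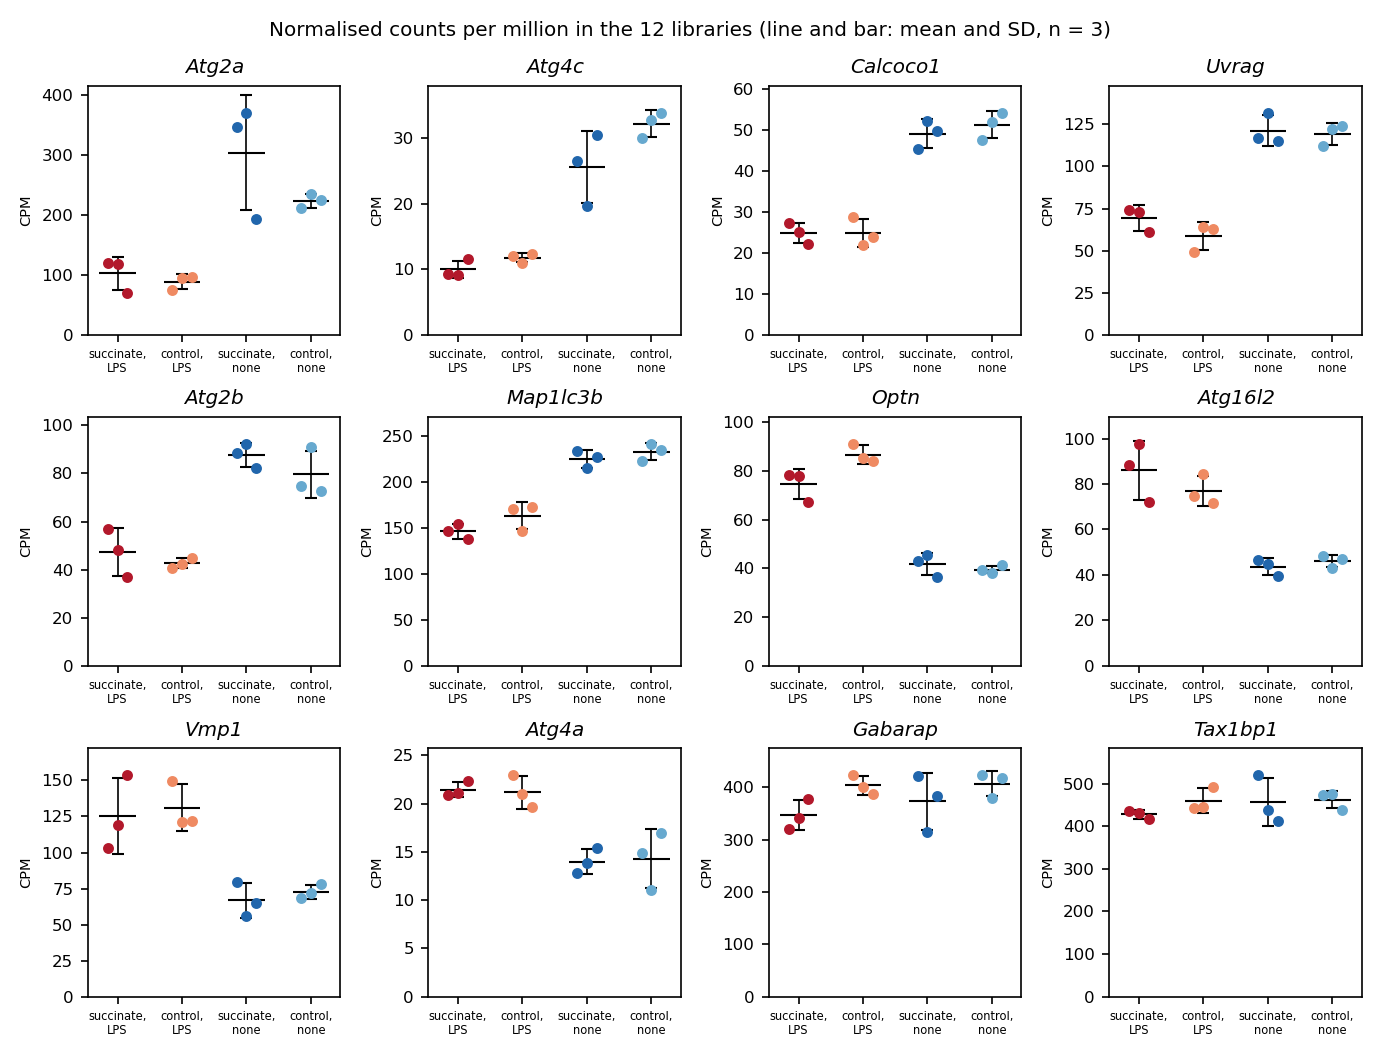
Normalised read counts (CPM, linear axis from 0) of 12 autophagy genes in the 12 libraries, by group. Points are libraries, lines and bars the mean and SD of 3. For the 10 genes from Atg2a to Atg4a the libraries with LPS (red and orange) stand apart from those without (blue), while Gabarap and Tax1bp1 overlap.

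Among the 7 conjugation genes, 1 was called up (Atg16l2) and 2 down (Atg7 and Atg12) in each kind of mouse. Atg16l2 is the paralogue of Atg16l1, the scaffold that brings the conjugation enzyme to the membrane, and lies at chr7:101263034-101302251. It had 88.3, 97.8 and 71.9 CPM in succinate mice with LPS and 74.6, 84.5 and 71.7 CPM in control mice with LPS. Unstimulated cells had 46.5, 44.9 and 39.5 CPM in succinate mice and 48.2, 43.2 and 46.9 CPM in control mice. There was no overlap, and the changes were 0.98 ± 0.13 (adjusted p = 2.6e-05) and 0.74 ± 0.12 (adjusted p = 0.000333). Atg16l1 itself had -0.03 ± 0.17 and 0.17 ± 0.17 and was not called. Exonic length joins all annotated exons of a gene and can exceed that of its mRNA, so ratios between genes per kilobase depend on it. Per kilobase of exon, Atg16l2 counts were 2.15 to 2.69 times those of Atg16l1 in succinate mice with LPS and 1.82 to 2.33 times in control mice with LPS. The ratio was 1.02 to 1.38 in succinate mice and 1.27 to 1.58 in control mice without LPS.

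Atg7, the E1-like enzyme of both conjugation systems, averaged 56.7 ± 2.98 CPM in succinate mice with LPS and 78.5 ± 18.6 CPM in succinate mice without, and 60.6 ± 4.03 CPM in control mice with LPS and 94.3 ± 4.66 CPM in control mice without (SD, n = 3 each). No library with LPS reached one without, and the changes were -0.47 ± 0.14 (adjusted p = 0.0183) and -0.64 ± 0.14 (adjusted p = 0.00256). Atg12, the ubiquitin-like protein joined to ATG5, changed by -0.57 ± 0.14 and -0.45 ± 0.14 (adjusted p = 0.00658 and 0.0247). The E2-like Atg3 (-0.21 ± 0.12 and -0.20 ± 0.12) and Atg5 (-0.09 ± 0.11 and -0.20 ± 0.11) were not called. Atg10, the E2-like enzyme for ATG12, had the lowest level of all members per length (0.541 to 1.03 CPM per kilobase as group means) and 7 to 39 counts per library. At that depth its changes of -0.18 ± 0.45 and 0.60 ± 0.44 had 95% intervals of -1.15 to 0.78 and -0.34 to 1.53, which reach past a 2-fold change.

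The 4 ATG4 proteases, which cut LC3 and GABARAP before lipidation and release them afterwards, split: Atg4a and Atg4d were called up, Atg4c down, and Atg4b was not called, in both kinds of mice. Atg4c (chr4:99193934-99259787) had 9.31, 9.19 and 11.5 CPM in succinate mice with LPS and 12, 11 and 12.3 CPM in control mice with LPS. Without LPS it had 26.5, 19.7 and 30.5 CPM in succinate mice and 30, 32.8 and 33.9 CPM in control mice. The libraries with LPS lay below all others, at -1.35 ± 0.16 (adjusted p = 1.32e-05) and -1.46 ± 0.16 (adjusted p = 6.05e-06), or 2.55-fold and 2.74-fold lower. Atg4a averaged 21.4 ± 0.748 CPM in succinate mice with LPS and 14 ± 1.29 CPM in succinate mice without, and 21.2 ± 1.75 CPM in control mice with LPS and 14.3 ± 3.04 CPM in control mice without. Its changes were 0.62 ± 0.16 (adjusted p = 0.00718) and 0.57 ± 0.16 (adjusted p = 0.0118). Atg4d changed by 0.34 ± 0.10 and 0.54 ± 0.10 (adjusted p = 0.0229 and 0.000993), and Atg4b, the most active of the family on LC3, had 0.12 ± 0.09 and 0.20 ± 0.09.

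In shares of the family's counts per kilobase, Atg4c made up 10.2% to 12.9% in succinate mice with LPS and 12.1% to 13.5% in control mice with LPS. Without LPS it held 23.3% to 33.2% in succinate mice and 32.9% to 37.0% in control mice. Atg4a held 29.7% to 31.4% and 26.9% to 30.1% in succinate and control mice with LPS, against 18.3% to 21.1% and 15.6% to 21.7% in succinate and control mice without. So Atg4c was the smallest share in each library with LPS, and Atg4a outnumbered it 2.44 to 2.90 times in succinate and 2.0 to 2.43 times in control mice with LPS, where without LPS the ratio was 0.609 to 0.879 in succinate and 0.423 to 0.630 in control mice.

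**Figure D3:**
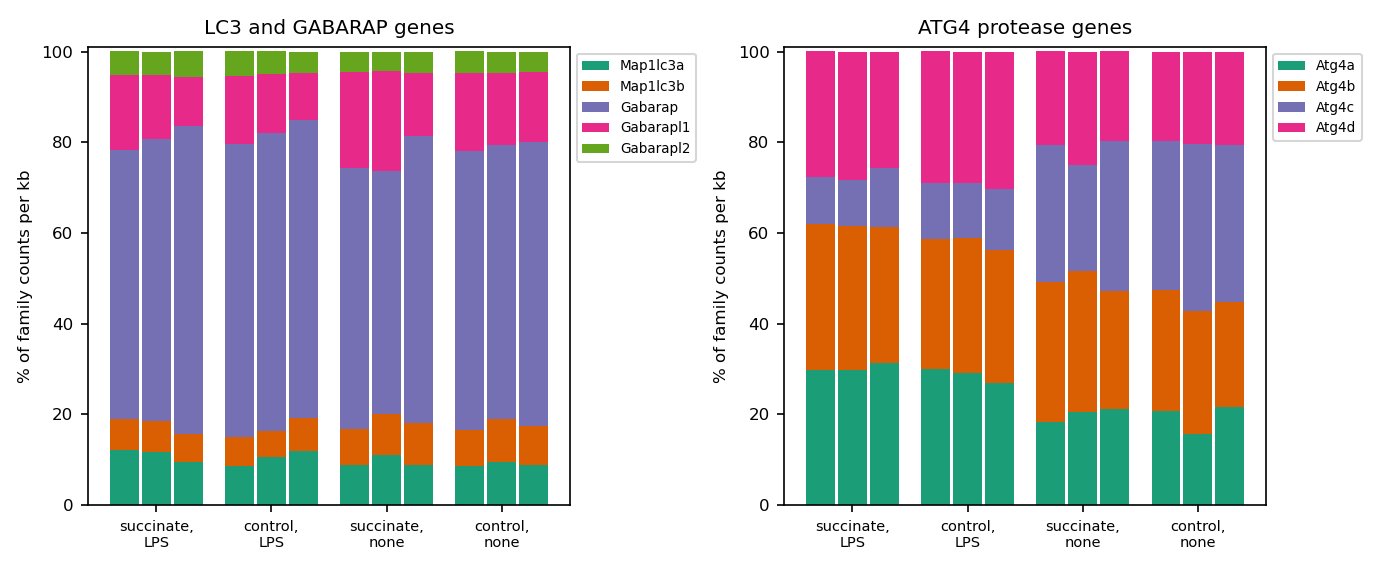
Share of each gene in the counts per kilobase of its family, as a percentage, for the 5 LC3 and GABARAP genes (left) and the 4 ATG4 proteases (right). Each bar is 1 library, in the order of replicates 1 to 3 within a group. Gabarap holds 53.5% or more of its family in each library, and Atg4c is narrower in the 6 libraries with LPS (10.2% to 13.5%) than in the 6 without (23.3% to 37.0%).

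The LC3 and GABARAP genes encode the ubiquitin-like proteins that coat the autophagosome. Of these 5 genes, 0 were called up, 2 were called down in succinate mice and 1 in control mice. Map1lc3b, whose protein LC3B is the usual marker of autophagosomes, had 147, 154 and 138 CPM in succinate mice with LPS and 171, 147 and 173 CPM in control mice with LPS. Unstimulated cells had 234, 215 and 227 CPM in succinate mice and 223, 242 and 235 CPM in control mice. The libraries with LPS lay below all without, at -0.62 ± 0.10 (adjusted p = 0.000204) and -0.51 ± 0.10 (adjusted p = 0.000984). Gabarapl1 had 96.3, 84.8 and 64.0 CPM in succinate mice with LPS and 107, 86.0 and 66.2 CPM in control mice with LPS. Without LPS it had 169.7, 142 and 91.1 CPM in succinate mice and 129.7, 108 and 113 CPM in control mice. The succinate groups overlapped at replicate 3, and the change was called in succinate mice (-0.72 ± 0.22, adjusted p = 0.0206) and not in control mice (-0.44 ± 0.22, adjusted p = 0.15), with an interaction of -0.28 (95% interval -0.93 to 0.37). Its call was lost without succinate replicate 3 with LPS (-0.57, adjusted p = 0.0872), without succinate replicate 1 without LPS (-0.51, adjusted p = 0.0978) and without succinate replicate 2 without LPS (-0.68, adjusted p = 0.0602).

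Gabarap, the most abundant member per length, had 321, 342 and 377 CPM in succinate mice with LPS and 423, 400.0 and 387 CPM in control mice with LPS. Unstimulated cells had 422, 314 and 383 CPM in succinate mice and 424, 379 and 418 CPM in control mice. These groups overlapped, and the changes of -0.11 ± 0.12 and -0.01 ± 0.12 were not called (adjusted p = 0.542 and 0.95). Gabarapl2 (GATE-16) had 35.6, 35.5 and 40.2 CPM in succinate mice with LPS and 44.3, 38.6 and 35.7 CPM in control mice with LPS. The Gabarapl2 values without LPS were 42.1, 31.1 and 36.0 CPM in succinate mice and 41.5, 37.9 and 38.1 CPM in control mice. Its groups overlapped too, at 0.03 ± 0.13 and 0.01 ± 0.13. Map1lc3a had 41.9, 40.8 and 33.5 CPM in succinate mice with LPS and 35.7, 40.8 and 45.5 CPM in control mice with LPS. The Map1lc3a values without LPS were 41.8, 41.8 and 34.1 CPM in succinate mice and 38.1, 38.1 and 38.1 CPM in control mice. Here as well the groups overlapped, at -0.02 ± 0.13 and 0.09 ± 0.13, neither called.

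Per kilobase, Gabarap stood at 188, 219, 202 and 221 CPM as the group mean of LPS-treated cells of succinate mice, LPS-treated cells of control mice, unstimulated cells of succinate mice and unstimulated cells of control mice. Gabarapl1 followed in the family with 40.6, 42.9, 66.7 and 58.1 CPM per kilobase in the same groups, then Map1lc3a with 32.8, 34.4, 33.2 and 32.3. Map1lc3b had 19.5, 21.8, 30 and 31.1 CPM per kilobase, close to Map1lc3a without LPS and below it with LPS. Gabarapl2 was lowest with 16, 17, 15.7 and 16.9. That order rests on exonic length, 7517 bases for Map1lc3b and 1181 for Map1lc3a. Unscaled by length, Map1lc3b was ahead, at 146, 164, 225 and 233 CPM in the same groups, against 38.8, 40.7, 39.2 and 38.1 CPM for Map1lc3a. Gabarap counts per kilobase were 8.90 to 11.1 times those of Map1lc3b in succinate mice with LPS and 9.13 to 11.1 times in control mice with LPS. Without LPS the ratio was 5.96 to 7.35 in succinate mice and 6.38 to 7.74 in control mice.

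The 4 cargo receptors of the set divided into 1 called up (Optn), 2 called down (Nbr1 and Calcoco1) and 1 not called (Tax1bp1), in both kinds of mice. Sqstm1 (p62), a receptor outside the set with far more counts, is given with the other lists below. Optn encodes optineurin, a ubiquitin-binding receptor for bacteria and damaged mitochondria that TBK1 phosphorylates (chr2:5020642-5064051). It had 78.5, 78.1 and 67.4 CPM in succinate mice with LPS and 91.2, 85.1 and 83.9 CPM in control mice with LPS. Without LPS it had 42.8, 45.5 and 36.6 CPM in succinate mice and 39.3, 38 and 41.2 CPM in control mice. All libraries with LPS were above all without, at 0.84 ± 0.11 (adjusted p = 2.98e-05) in succinate mice and 1.13 ± 0.11 (adjusted p = 1.52e-06) in control mice. Calcoco1, a receptor for the endoplasmic reticulum and the Golgi (chr15:102706777-102722178), had 27.3, 25 and 22.3 CPM in succinate mice with LPS and 28.7, 22.0 and 24.0 CPM in control mice with LPS. Without LPS the Calcoco1 values were 45.4, 52.3 and 49.9 CPM in succinate mice and 47.7, 52.1 and 54.3 CPM in control mice. The libraries with LPS were again all lower, at -0.98 ± 0.13 (adjusted p = 2.6e-05) and -1.04 ± 0.13 (adjusted p = 1.44e-05).

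Nbr1, a receptor for ubiquitinated proteins and peroxisomes, had 136, 119 and 92.6 CPM in succinate mice with LPS and 97.4, 114 and 93.7 CPM in control mice with LPS. The Nbr1 values without LPS were 187, 172 and 152 CPM in succinate mice and 165, 162 and 158 CPM in control mice. The groups did not overlap, and the changes were -0.56 ± 0.14 (adjusted p = 0.00557) and -0.67 ± 0.14 (adjusted p = 0.00154). Counts per kilobase of Optn were 1.06 to 1.33 times those of Nbr1 in succinate mice with LPS and 1.37 to 1.71 times in control mice with LPS, so Optn was ahead in all 6 on that scale. Without LPS the ratio was 0.420 to 0.485 in succinate mice and 0.430 to 0.478 in control mice. Unscaled by length, Optn was below Nbr1 with LPS too (74.6 and 86.7, against 116 and 102 CPM as means of succinate and control mice). Tax1bp1, a receptor that also restrains NF-kB signalling with A20, had 436, 432 and 416 CPM in succinate mice with LPS and 442, 446 and 493 CPM in control mice with LPS. Its values without LPS were 521, 437 and 412 CPM in succinate mice and 473, 476 and 439 CPM in control mice. The groups overlapped, at -0.09 ± 0.11 and -0.01 ± 0.11, not called. The SNARE Stx17, which joins the closed autophagosome to the lysosome, had 0.29 ± 0.13 and 0.02 ± 0.13 and was not called.

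Succinate was set against control among cells with LPS and among cells without it. Of the 38 members, 0 were called with LPS and 0 without, where 0.0628% of all tested genes (9, all lower) were called with LPS and 0% without. The counts of members at an unadjusted p below 0.05 were 2 and 1, against 1680 and 535 of the 14324 genes tested. DESeq2 and limma-voom also called 0 members in either comparison. With LPS, Atg9a averaged 90.4 ± 13.2 CPM in succinate mice and 69.2 ± 17.7 CPM in control mice (log2 0.39, 95% interval 0.01 to 0.76, adjusted p = 0.41). Atg3 averaged 64.8 ± 6.23 CPM in succinate mice and 77.4 ± 7.87 CPM in control mice with LPS (-0.26, -0.50 to -0.01, adjusted p = 0.41). Without LPS, Atg4c averaged 25.6 ± 5.44 CPM in succinate mice and 32.2 ± 2.04 CPM in control mice (-0.33, -0.66 to -0.00, adjusted p = 0.958). For 37 of 38 members the whole 95% interval lay within a 2-fold change, in both comparisons, and Atg10 was the exception. The largest estimate without LPS was that of Atg2a, at 304 ± 96.3 CPM in succinate mice and 224 ± 12 CPM in control mice (0.44, -0.03 to 0.92). A p that misses the threshold does not show that the levels are alike.

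The interaction, which asks whether the LPS effect differed between succinate and control mice, was called for 0 of 38 members and for 0% of all genes. For 0 members was its unadjusted p below 0.05, against 560 of the 14324 genes tested, and DESeq2 and limma-voom called 0 members. Its estimates ran from -0.78 for Atg10 to 0.27 for Stx17, and for 37 members the 95% interval was within a 2-fold difference. For Optn it was -0.29 (95% interval -0.62 to 0.04).

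**Figure D4:**
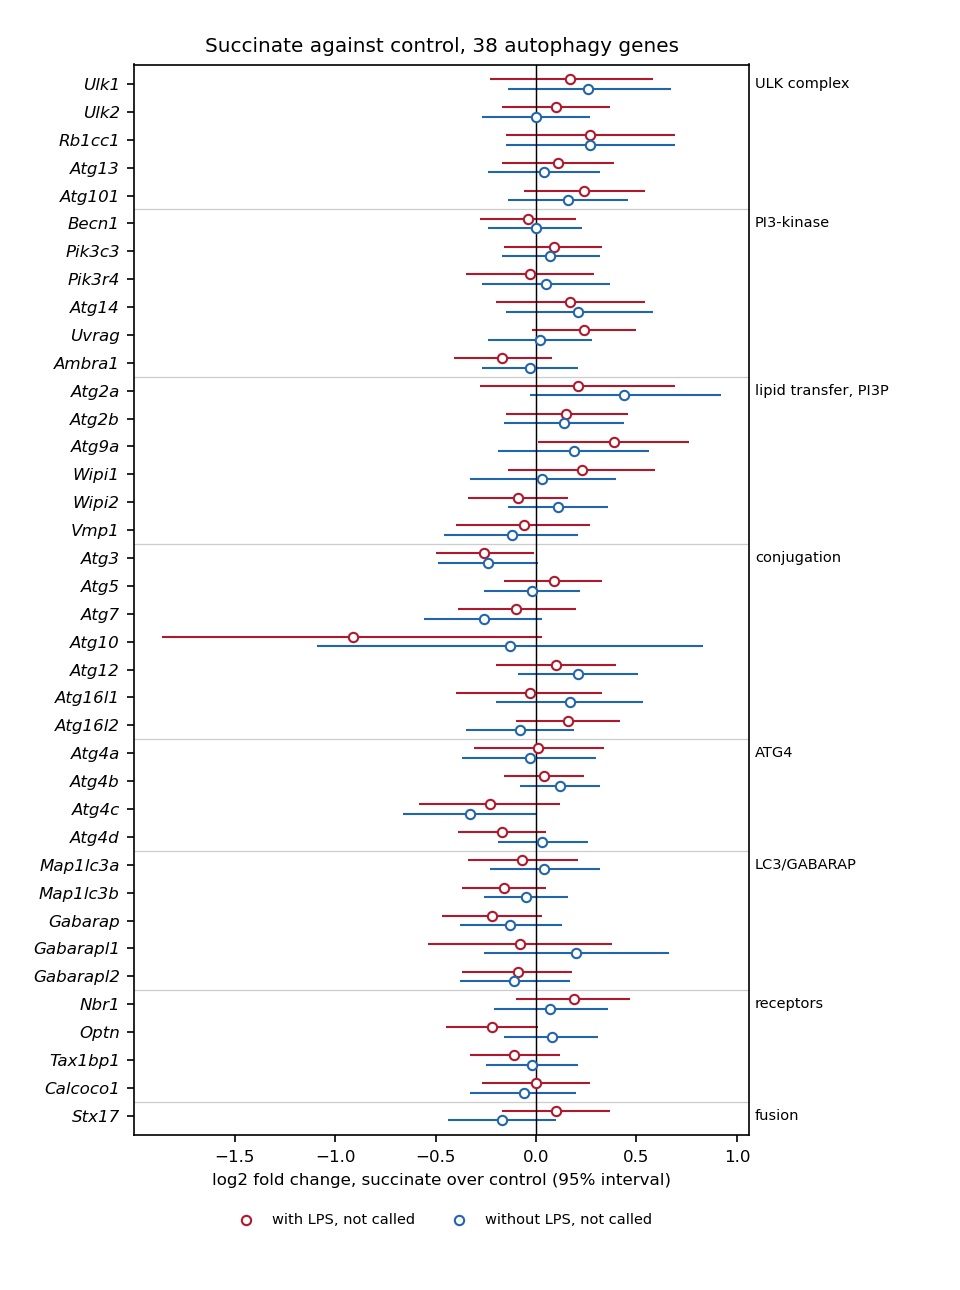
Log2 fold change of succinate over control mice for the 38 autophagy genes, with LPS (red) and without (blue). Points are estimates and lines 95% intervals; open points mark an adjusted p of 0.05 or more, which is every gene here. Only the intervals of Atg10 reach past a 2-fold change (-1.86 and -1.09 at their lower ends).

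Member levels varied more between libraries in the succinate groups. The median coefficient of variation of a member was 11.6% in succinate mice with LPS, 9.40% in control mice with LPS, 12% in succinate mice without LPS and 6.04% in control mice without LPS, where over all tested genes it was 13.7%, 14.3%, 18% and 11.8%. Replicate 3 was the lowest of the 3 libraries for 26 of 38 members in succinate mice with LPS and for 20 in succinate mice without LPS, as held for 34.2% and 33.3% of all tested genes. It was lowest in both succinate groups for 20 members, among them Ulk1, Rb1cc1, Atg2a, Gabarapl1 and Nbr1, as held for 19.4% of all tested genes. In control mice replicate 3 was lowest in both groups for 4 members, and for 14.4% of all tested genes. The median member of succinate replicate 3 was -0.23 (log2) from the mean of the other 2 libraries of its group with LPS and -0.12 without LPS, where the median of all tested genes was 0.05 and 0.03. The members were longer than other genes (median exonic length 5956 bases, against 3883 over tested genes), and across all genes the deviation of these 2 libraries had a Spearman correlation with exonic length of -0.21 and -0.14. Over all 12 libraries that correlation ran from -0.30 to 0.44, and both ends were libraries of succinate mice without LPS in which the median member deviated by 0.09. It was -0.15 in control replicates 1 and 3 without LPS, where the median member deviated by -0.01 and 0.02. The part of gene length in the deviation was not tested.

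Without succinate replicate 3 with LPS, 13 members, 10 of them higher in succinate mice, had an unadjusted p below 0.05 in the comparison with LPS, against 2 with all libraries. That library was the lowest of its group for 26 of the 38 members, and leaving it out raises their mean. Over all genes the adjusted test then called 197, against 9 with all libraries. The adjusted test still called 0 of 38 (smallest adjusted p = 0.155, range 0.127 to 0.826 over the 21 alternatives). Without succinate replicate 3 without LPS, 7 members had an unadjusted p below 0.05 in the comparison without LPS, against 1 with all libraries, and 0 were called. Of those 7, 4 were higher in succinate mice, and the library left out was the lowest of its group for 20 of 38 members. For these 2 fits the share of all genes at an unadjusted p below 0.05 was not counted.

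**Figure D5:**
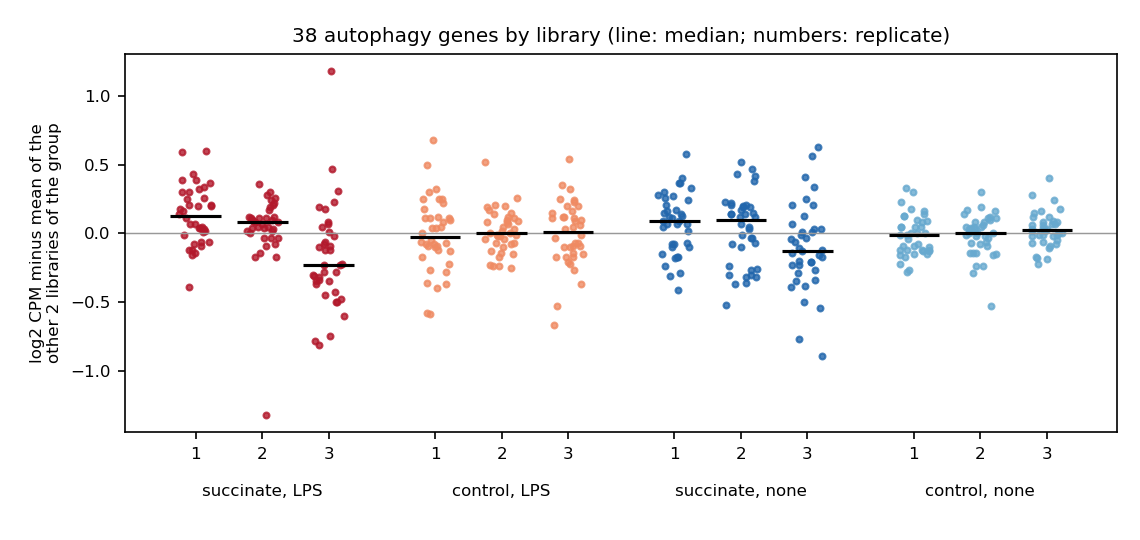
Deviation of each of the 38 autophagy genes in each library, as log2 CPM minus the mean of the other 2 libraries of its group. Points are genes, black lines medians. The median is lowest in succinate replicate 3, at -0.23 with LPS and -0.12 without, and the medians of the 6 control libraries lie between -0.03 and 0.02.

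Other parts of the pathway were described with 2 further lists. Of 38 other autophagy proteins (further receptors, membrane-shaping and tethering factors), 5 were called up and 15 down with LPS in succinate mice and 5 up and 14 down in control mice, with medians of -0.21 and -0.11. Over all tested genes 14.1% were called up and 16.2% down in succinate mice and 15.3% up and 14.8% down in control mice. The 4 with the smallest p were Plekhm1, Tecpr1, Retreg1 and Irgm1. Plekhm1, an adaptor between autophagosomes and lysosomes, averaged 182 ± 6.71 CPM in succinate mice with LPS and 670.5 ± 88.0 CPM in succinate mice without, and 253 ± 35.4 CPM in control mice with LPS and 756 ± 67.4 CPM in control mice without. It fell by 1.88 and by 1.58 on the log2 scale (SE 0.13 each, adjusted p = 7.17e-08 and 3.14e-07). Tecpr1, a tethering factor, changed by -1.83 ± 0.19 and -1.72 ± 0.19, and Retreg1, a receptor for the endoplasmic reticulum, by -1.49 ± 0.16 and -1.47 ± 0.16. Irgm1, an interferon-inducible GTPase tied to autophagy of mycobacteria, went up by 1.46 ± 0.17 and 1.72 ± 0.17. The receptor Sqstm1 was also called up, at 0.90 ± 0.18 and 1.44 ± 0.18 (adjusted p = 0.00153 and 2.38e-05). It averaged 5561 and 8795 CPM in succinate and control mice with LPS, against 2986 and 3244 CPM without. Among further receptors, Tex264, Bnip3 (4.05 to 7.55 CPM as group means) and Bnip3l were called down in both kinds of mice. The receptors Fundc1 (0.35 and 0.04), Sec62 (0.30 and 0.20), Rtn3 (0.10 and 0.01), Tollip (-0.16 and 0.23) and Ccpg1 (-0.38 and -0.03) were not called in either. With succinate against control, 0 of the 38 were called in either condition. With LPS, 11 of them had an unadjusted p below 0.05, as did 1680 of the 14324 genes tested, and 24 of the 38 estimates were negative (median -0.11, smallest adjusted p = 0.107). Without LPS the count at an unadjusted p below 0.05 was 0, against 535 of all genes.

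The second list held 30 genes of the mTORC1 and AMPK kinases, which restrain and promote autophagy. With LPS, 1 was called up and 8 down in succinate mice and 1 up and 5 down in control mice, with medians of -0.22 and -0.11. The shares over all genes are those given for the first list, and 5 of 30 is near the 14.8% called down over all genes in control mice. The one called up was Ddit4 (REDD1), an mTORC1 inhibitor, at 1.63 ± 0.20 and 1.69 ± 0.20. Prkag2, a regulatory subunit of AMPK, fell the most, to 5.39 ± 1.30 CPM in succinate mice with LPS, against 25.6 ± 2.60 CPM in succinate mice without, and to 4.63 ± 0.637 CPM in control mice with LPS, against 24.9 ± 4.19 CPM in control mice without (-2.25 ± 0.19 and -2.43 ± 0.20, adjusted p = 4.71e-07 and 2.65e-07). Rragd, a Rag GTPase that recruits mTORC1 to lysosomes, changed by -2.00 ± 0.33 and -1.57 ± 0.32 from a low level (2.32 and 2.95 CPM in succinate and control mice without LPS). Tsc1, an mTORC1 brake, was called in succinate mice (-0.64 ± 0.12, against -0.28 ± 0.12 in control mice, adjusted p = 0.101), and its interaction of -0.36 had an adjusted p of 1.

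Some members share exonic sequence with a neighbour, and the sources used here do not say whether counting used strand, so reads there could be split. Kri1, on the other strand, covers 19.3% of the exonic length of Atg4d and had 46.5% as many counts, 2272 in the libraries with LPS and 2340 in those without. Fchsd2 covers 0.295% of Atg16l2 and also had more counts with LPS (4986, against 2070 without). Gskip covers 2.85% of Atg2b and had 40.9% as many counts (3010 with LPS and 2371 without), and Ankzf1 covers 0.798% of Atg9a and had 36.5%. Mir21a lies on the same strand as Vmp1, where strand cannot separate reads, covers 2.38% of it and had 0 counts. Becn1 shares 43.9% of its exonic length with Cntd1, Gabarapl1 28.3% with 1700101I11Rik, Atg9a 31.8% with Gm29253 and Uvrag 17.6% with Gm45187, and those neighbours held under 1% of the member's counts. The pseudogene Atg4a-ps had 1.07% as many counts as Atg4a.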

How the data were processed

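Bone marrow monocytes of succinate and control mice were measured by RNA-seq, 12 libraries in 4 groups of 3, grouped by sample title. The deposited files hold raw read counts, whole numbers made by the authors for each gene. Trim Galore and mm10 come from the submitters' processing notes, and the labels' protocols name Trizol extraction of total RNA. The sources used here do not give the aligner, the counter, its annotation or its use of strand.

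Counts were scaled by TMM and filtered by filterByExpr (14239 low genes removed, at least 99.87% of counts kept), and edgeR 4.0.16 (R 4.3.3) fitted a quasi-likelihood model with 1 mean per group to all 12 libraries, with 5 contrasts. Standard errors come from that fit. Alternatives were RLE scaling, library size alone, no filter, a filter of 1 CPM in 6 libraries, DESeq2 1.42.0, limma-voom (limma 3.58.1), a fit of only the groups compared, the replicate number as a block, a library class covariate, and leaving out each library. Within groups, libraries differed by more than sampling noise (chi-square per degree of freedom 4.95 or more). Same-numbered libraries deviated together in all pairs (every correlation above 0.1) only between succinate and control mice without LPS (0.26, 0.12 and 0.20), as a pattern in the data. Between cells with and without LPS, single pairs also passed 0.1. These were replicate 3 in succinate mice (0.38) and replicates 1 and 3 in control mice (0.12 and 0.21).

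The members and lists were chosen with earlier results of these data known. Values in each library are given for the up to 8 called members with the largest change in each LPS comparison, the LC3 and GABARAP genes and the receptors. Other lists are given by the 4 called genes with the smallest p, and the first list also by Sqstm1 and further receptors. Coordinates and exonic lengths are from GENCODE M21 (GRCm38, the assembly of mm10), and promoter windows from RefSeq (GRCm38.p6), leaving out the 50 bases after the start.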

Additional observations from a re-analysis of the deposited data

How the results depend on the processing

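Under 9 other settings (8 for the interaction, which needs all 4 groups) the number of members called with LPS was 16 to 22 in succinate mice and 17 to 20 in control mice, against 21 and 18. Over all genes tested, these 9 settings called 3507 to 4864 in succinate mice and 4061 to 4756 in control mice, against 4331 and 4306. Leaving out 1 library at a time gave 17 to 21 members in succinate mice and 14 to 19 in control mice. Over all genes tested it gave 3374 to 4387 and 3347 to 4547. Succinate against control and the interaction called 0 members under each of these. With the replicate number as a block, 22 members were called in succinate mice, 19 in control mice and 0 in the other 3 comparisons. The block added Ambra1 in succinate mice and Gabarapl1 in control mice (-0.47, adjusted p = 0.0109). No called member changed sign. Of the values recomputed for each member, 42 of 798 lost a call and 5 gained one in succinate mice, and 28 lost and 10 gained in control mice; the cause was not tested. In succinate mice 14 of 21 calls held in all 21 alternatives, and in control mice 13 of 18.

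Calls that leaving out 1 library ended in succinate mice were those of Ulk1 (succinate replicate 2 without LPS, -0.51), Atg7 (succinate replicate 1 with LPS, -0.43, and 3 without, -0.26), Atg4d (succinate replicates 1 and 2 with LPS and 1 and 3 without, 0.30 to 0.33), Wipi1 (the same 4 and control replicate 1 without LPS, 0.39 to 0.47), Atg14 (succinate replicate 3 and control replicate 2 with LPS, and without LPS succinate replicates 1 and 2 and control replicates 2 and 3, -0.49 to -0.35), Pik3c3 (any library but control replicate 3 with LPS and control replicates 1 and 3 without, -0.37 to -0.30) and Gabarapl1, given above. In control mice they were those of Ulk1 (control replicates 1 to 3 with LPS and 2 and 3 without, -0.63 to -0.52), Atg12 (control replicates 1 to 3 with LPS and 1 and 3 without, -0.48 to -0.35), Pik3c3 (control replicates 1 and 2 with LPS and 2 and 3 without, -0.34 to -0.24), Atg14 (any control library, succinate replicate 2 with LPS, and succinate replicates 1 and 2 without, -0.52 to -0.37) and Atg4a (control replicate 2 without LPS, 0.43). Calls gained in this way were Pik3r4 (without succinate replicate 1 without LPS, -0.47) and Stx17 (without succinate replicate 3 without LPS, 0.41) in succinate mice, and Wipi1 (without control replicate 1 with LPS, 0.48) and Ulk2 (without succinate replicate 3 with LPS, -0.35, or control replicate 3 with LPS, -0.41) in control mice.

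The number of all genes called for succinate against control with LPS was less stable: 9, but 0 with library size alone, 694 with no filter, 346 by DESeq2 and 197 without succinate replicate 3 with LPS. With library size alone the median gene of that comparison was at 0.107 on the log2 scale, against -0.014 with TMM. Depth limited Atg10 (7 to 39 counts per library).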
